A study of Mus musculus with 2 samples.

Results

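The BCL2 family decides at the mitochondrion whether a cell lives or dies, and 10 of its genes were described here in mouse bone marrow progenitors. They were taken by name: the survival genes Bcl2, Bcl2l1 and Mcl1, the effector genes Bax and Bak1, and the BH3-only genes Bcl2l11, Bbc3, Bid, Bad and Pmaip1. Gene IDs of the deposited tables were matched to GENCODE symbols without their version numbers. All 10 genes were found among 43346 Ensembl genes in the tables, of which 21461 were nuclear protein-coding genes, and the transcript tables held 40 transcripts of them.

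The assay was total RNA-seq of megakaryocyte-erythroid progenitors (MEP), bone marrow cells that give rise to red cells and to platelet-forming megakaryocytes. They were primary cells of adult male C57BL/6J mice aged 5 to 6 weeks, with no treatment and no altered allele named in the labels. The series has 1 group of 2 libraries, each with 100 ng of rRNA-depleted starting RNA. The labelled size range was 200 to 1000 in replicate 1 and 215 to 1000 in replicate 2, with no unit. The libraries have biosample entries of their own but share a donor entry, so whether separate mice gave the cells is not stated and the spread between them may be technical. No groups could be compared. Values are given per library and as mean ± SD over the libraries, and with 2 libraries an exact sign test (two-sided) cannot give a p below 0.5.

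The libraries held 39919858 expected counts in replicate 1 and 48043009 in replicate 2 over Ensembl genes. The labelled cell type was set against markers chosen for 6 cell types. Levels are in TPM, a share of all transcripts that is scaled by length. In each library all 8 erythroid markers stood at 1 TPM or more, summing to 1361 TPM for replicate 1 and 1342 TPM for replicate 2, with Car1 and Car2 making up most of the sums. Rescaled over nuclear protein-coding genes, all 8 were higher in replicate 2, and the globin gene Hbb-bs had 1.56 TPM in replicate 1 and 14.5 TPM in replicate 2. Of the 5 megakaryocyte markers, 3 stood at 1 TPM or more in each library, against 39.4% of the 21461 nuclear protein-coding genes. The megakaryocyte markers summed to 45.5 TPM in replicate 1 and 18.25 TPM in replicate 2. Stem cell markers summed to 77.3 in replicate 1 and 20.1 in replicate 2, and mast cell and basophil markers to 7.76 and 1.54, with Mcpt8 at 0 in both. Granulocyte and monocyte markers summed to 74.9 in replicate 1 and 138 in replicate 2, and lymphoid markers to 7.22 and 16.2, with the T cell genes Cd3e and Cd8a at 0 in both. In bulk RNA, fewer cells of a type and less RNA per cell cannot be told apart.

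Proteins of this family share short helices called BCL2 homology (BH) domains. Survival proteins such as BCL2, BCL-XL (encoded by Bcl2l1) and MCL1 hold the BH3 helix of a death protein in a surface groove, while the effectors BAX and BAK open the outer mitochondrial membrane once they are freed or activated. BH3-only proteins carry stress signals to that groove. In mice, MCL1 is needed by blood stem and progenitor cells, and BCL-XL by maturing red cells and by platelets.

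The BH3 core is the feature that joins the 3 roles, so its coding sequence is shown for the 9 genes for which it is printed. It was searched in the coding frame of the protein-coding transcript with the highest TPM, as a leucine codon, 3 codons of any kind, a glycine, alanine or serine codon and an aspartate codon. The pattern was present in all 10 coding sequences, with 1 match in each of the 9 genes and 2 in Pmaip1, whose sequence is not printed. Among the 8293 nuclear protein-coding genes whose longest coding sequence had 103 to 331 codons, the range of the members, 18.2% held the pattern. That share rests on the longest coding sequence, not on the transcript with the highest TPM. The members were chosen from a family that carries this core, so its presence in them was given in advance and is no test. Each line gives 36 bases, 5′ to 3′, from the GENCODE M21 transcripts, with the 6 codons of the core in capitals and 3 codons of each flank in lower case.
Bcl2: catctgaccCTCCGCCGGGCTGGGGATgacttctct
Bcl2l1: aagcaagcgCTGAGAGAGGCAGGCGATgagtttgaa
Mcl1: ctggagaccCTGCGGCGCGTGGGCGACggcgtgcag
Bax: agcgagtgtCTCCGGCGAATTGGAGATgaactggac
Bak1: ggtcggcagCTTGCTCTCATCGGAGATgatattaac
Bcl2l11: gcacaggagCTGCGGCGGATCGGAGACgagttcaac
Bbc3: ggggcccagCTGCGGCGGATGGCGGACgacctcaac
Bid: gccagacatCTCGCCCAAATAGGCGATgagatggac
Bad: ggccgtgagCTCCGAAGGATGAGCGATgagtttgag

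On mm10 the stretch of Bcl2 lies at chr1:106712575-106712610 on the minus strand, with the core starting at codon 94 of 236. That of Bcl2l1 lies at chr2:152829697-152829732 on the minus strand (codon 90 of 233) and that of Mcl1 at chr3:95659427-95659462 on the plus strand (codon 194 of 331). For the effectors, Bax has it at chr7:45465997-45466032 (codon 63 of 192) and Bak1 at chr17:27022531-27022566 (codon 76 of 209), both on the minus strand. Among BH3-only genes, Bcl2l11 has it at chr2:128147141-128147176 (codon 150 of 196), Bbc3 at chr7:16313764-16313799 (codon 141 of 193) and Bad at chr19:6950783-6950818 (codon 109 of 162), all on the plus strand, and Bid at chr6:120897289-120897324 on the minus strand (codon 90 of 195). None of the 9 stretches spans an exon junction.

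The 9 cores shared 4 of 18 bases in every gene, and 3 of these are fixed by the search pattern itself, which also adds to every pair's count. Over the 36 pairs of genes, the median was 11 identical core bases and the range 7 to 15. The closest pair was Bcl2l11 and Bbc3, the genes of BIM and PUMA, with 15 identical bases. The pair with the fewest, 7, was Bcl2l1 and Bak1. Close pairs crossed the roles: Bax shared 14 core bases with Bcl2l11, and Mcl1 shared 14 with Bbc3.

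Among the survival genes, Mcl1 carried most of the RNA. Mcl1 (ENSMUSG00000038612.12, mm10 chromosome 3, 95658788 to 95663176, plus strand) encodes a short-lived protein that binds BIM, NOXA and BAK. It had 10282 expected counts in replicate 1 and 9917 in replicate 2, and TPM of 34.5 and 22.6, a mean of 28.6 ± 8.41 (SD, n = 2). It was the highest of the 10 genes in both libraries and ranked 1349 of the 21461 nuclear protein-coding genes by mean TPM.

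Bcl2 (ENSMUSG00000057329.7, chromosome 1, 106538178 to 106714274, minus strand), the gene that gave the family its name, had 2102 counts in replicate 1 and 1897 in replicate 2. Its TPM was 3.87 and 2.60, a mean of 3.235 ± 0.898 (SD, n = 2). Bcl2l1 (ENSMUSG00000007659.14, chromosome 2, 152780668 to 152831728, minus strand), which encodes BCL-XL, had 337 counts in replicate 1 and 171 in replicate 2, with TPM of 3.16 and 0.80. Its mean of 1.98 ± 1.67 (SD, n = 2) had the widest spread of the 10 genes relative to its level, and only replicate 1 reached a TPM of 1.

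At the level of whole genes, both effector genes were above Bcl2 and Bcl2l1 in each library. Bak1 (ENSMUSG00000057789.9, chromosome 17, 27019810 to 27029009, minus strand), which encodes the effector that sits in the outer membrane, had 1380 counts in replicate 1 and 1950 in replicate 2. Its TPM was 15.3 and 11.6, a mean of 13.5 ± 2.62 (SD, n = 2). Bax (ENSMUSG00000003873.10, chromosome 7, 45461697 to 45466898, minus strand), which encodes the effector that moves from the cytosol to the membrane, had 553 and 684 counts. Its TPM was 9.38 in replicate 1 and 7.91 in replicate 2, a mean of 8.645 ± 1.04 (SD, n = 2). The values of Bak1 and Bax did not overlap over the libraries at the level of whole genes.

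Of the BH3-only genes, Bid, Bad and Bcl2l11 lay in the middle of the order, and Bbc3 and Pmaip1 lay at its low end. Bid (ENSMUSG00000004446.8, chromosome 6, 120891930 to 120916853, minus strand), whose protein is cut by caspase 8 in death receptor signalling, had 1084 counts in replicate 1 and 1470 in replicate 2. Its TPM was 6.32 and 5.56, a mean of 5.94 ± 0.537 (SD, n = 2). Bad (ENSMUSG00000024959.9, chromosome 19, 6941861 to 6951899, plus strand), whose protein is switched off by phosphorylation when growth factors are present, had 412 and 471 counts. Its TPM was 5.69 in replicate 1 and 4.30 in replicate 2, a mean of 4.995 ± 0.983 (SD, n = 2).

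Bcl2l11 (ENSMUSG00000027381.12, chromosome 2, 128126038 to 128162547, plus strand), the gene of BIM, had 911 counts in replicate 1 and 1688 in replicate 2. Its TPM was 3.17 and 4.63, a mean of 3.90 ± 1.03 (SD, n = 2). By TPM, Bcl2l11 and Bbc3 were the 2 genes of the set that were higher in replicate 2. Bbc3 and Pmaip1 encode PUMA and NOXA, BH3-only proteins known as p53 targets. Bbc3 (ENSMUSG00000002083.8, chromosome 7, 16308393 to 16318205, plus strand) had 121 counts or 0.83 TPM in replicate 1 and 200 counts or 0.94 TPM in replicate 2, a mean of 0.885 ± 0.0778 (SD, n = 2). Pmaip1 (ENSMUSG00000024521.7, chromosome 18, 66458533 to 66465565, plus strand) had 156 counts or 0.71 TPM in replicate 1 and 109 counts or 0.33 TPM in replicate 2, a mean of 0.52 ± 0.269 (SD, n = 2). It was the lowest of the 10 genes in both libraries.

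**Figure D1:**
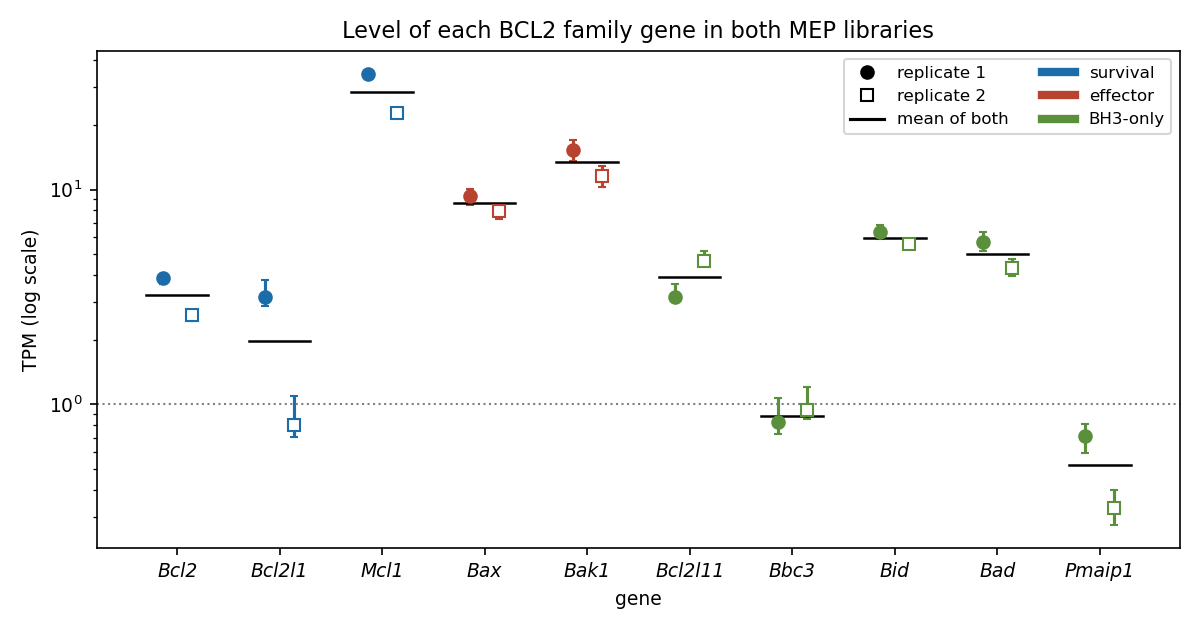
TPM of each of the 10 genes on a log axis, with replicate 1 as filled circles, replicate 2 as open squares, a bar for their mean and, as error bars, the authors' interval of the TPM (level not stated); colours give the role and the dotted line marks a TPM of 1. Mcl1 lies at 34.5 and 22.6, above every other gene, while Pmaip1 lies at 0.71 and 0.33, and the points of Bcl2l1, 3.16 and 0.80, stand farther apart than those of any other gene.

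By mean TPM the order was Mcl1, Bak1, Bax, Bid, Bad, Bcl2l11, Bcl2, Bcl2l1, Bbc3 and Pmaip1. Mcl1 over Bak1, Bak1 over Bax and Bax over Bid were the 3 steps at which neither the values of the libraries nor the authors' intervals overlapped. From Bid to Bbc3, the values of neighbours overlapped over the libraries. For whole genes, Bid was above Bad within each of them all the same, by 0.26 ± 0.155 on the log2 scale (SD, n = 2). On transcripts classed as protein-coding only, Bid over Bad was -0.41 in replicate 1 and 0.35 in replicate 2, so that order was not stable within this class. Bbc3 and Pmaip1 did not overlap over the libraries, but the authors' intervals overlapped in at least 1 library. In both libraries, 7 of the 10 genes stood at 1 TPM or more, against 39.4% of the 21461 nuclear protein-coding genes. Bcl2l1, Bbc3 and Pmaip1 did not. The median over the 10 genes was a TPM of 4.45, against 0.2 over all 21461 nuclear protein-coding genes. It was 7.38 over the 9033 of these that averaged 1 TPM or more, a filter that 2 of the 10 family genes did not pass.

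Summed by role, the survival genes came to 41.55 TPM in replicate 1 and 26.03 TPM in replicate 2, and Mcl1 held 83.1% and 86.9% of it. The effector genes summed to 24.7 and 19.5 and the BH3-only genes to 16.7 and 15.8. The survival sum was therefore above the effector sum by 0.58 ± 0.24 on the log2 scale (0.75 in replicate 1 and 0.42 in replicate 2, SD, n = 2). It was above the BH3-only sum by 1.02 ± 0.42 (1.31 and 0.72). Both differences had 1 sign in both libraries, and they exceeded the spread between the libraries.

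Within the survival genes, Mcl1 exceeded Bcl2 by 3.16 in replicate 1 and 3.12 in replicate 2 on the log2 TPM scale, a mean of 3.14 ± 0.025 (SD, n = 2). This was the steadiest ratio of those computed between members. Mcl1 exceeded Bcl2l1 by 3.45 and 4.82, a mean of 4.14 ± 0.97. Bcl2 exceeded Bcl2l1 by 0.29 in replicate 1 and 1.70 in replicate 2, a mean of 1.00 ± 1.00, so the size of that gap was not resolved. Bcl2l11 over Bcl2, a death gene over a survival gene whose protein binds BIM, had no stable sign, with -0.29 in replicate 1 and 0.83 in replicate 2.

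The transcript tables showed that for 4 genes the whole-gene level mixed coding with other transcripts. Types came from GENCODE M21, and transcript values are the authors' estimates for 1 library each. Shares of named transcripts are the authors' percents, and shares of summed classes were computed from rounded TPM, so the same share can differ in its last digit. Of 40 transcripts, 39 were found in M21 and 34 had the same length there, and 20 held at least 10% of their gene's TPM in either library. Mcl1, Bax, Bbc3 and Pmaip1 each had all of their TPM on 1 coding transcript, and Bcl2 and Bad had theirs on coding transcripts only.

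Bcl2 was split between the transcript for its long form of 236 codons, Bcl2-201, and that for a form of 199 codons, Bcl2-202, which lacks the membrane anchor of the long form. Bcl2-201 held 76.6% of the gene's TPM in replicate 1 and 64.7% in replicate 2, with 2.96 and 1.68 TPM. Bcl2-202 held 23.4% and 35.3%, with 0.90 and 0.92 TPM. By TPM the short form was thus level between the libraries, while the long form was higher in replicate 1. TPM ran higher in replicate 1 for most genes, with a median log2 ratio of 0.27. The short form had 216 counts in replicate 1 and 322 in replicate 2. Bad had 94.5% and 89.0% of its TPM on Bad-202, and Bad-201 held 5.53% in replicate 1 and 10.96% in replicate 2.

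For Bcl2l1, the coding transcripts were the lower part of the whole-gene TPM in replicate 1. Bcl2l1-201, the transcript of the full BCL-XL protein, had 157 counts and 0.78 TPM in replicate 1 and 138 counts and 0.47 TPM in replicate 2, or 24.8% and 58.5% of the gene's TPM. The non-coding Bcl2l1-209, of 961 bases, lacks the BH3 stretch shown above and had 144 counts and 2.14 TPM in replicate 1, against 32.9 counts and 0.33 TPM in replicate 2. Coding transcripts together came to 1.02 and 0.47 TPM, a mean of 0.745 ± 0.389 (SD, n = 2). Their share was 32.3% and 58.8% of the TPM, but 57.3% and 80.8% of the expected counts, since the non-coding transcript is short. On coding transcripts only, Bcl2 exceeded Bcl2l1 by 2.19 ± 0.39 on the log2 scale, and Mcl1 exceeded it by 5.34 ± 0.36.

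The full coding transcript Bak1-202, of 209 codons, had 565 counts and 2.86 TPM in replicate 1 and 141 counts and 0.49 TPM in replicate 2, only 18.7% and 4.22% of the gene's TPM. Bak1-201, annotated as a target of nonsense-mediated decay, had 667 counts and 4.17 TPM in replicate 1 and 1709 counts and 7.27 TPM in replicate 2. Bak1-201 holds the BH3 stretch, with an open frame of 151 codons. A transcript of 416 bases that has no match in M21 had 148 and 100 counts, which its short length turned into 8.29 and 3.85 TPM. Whether that short transcript codes for protein was not known here. Bak1-202 alone had a mean TPM of 1.68 ± 1.68 (SD, n = 2), below Bcl2 in both libraries. Bak1 over Bax was 0.63 ± 0.11 on the log2 scale for whole genes and -2.86 ± 1.63 with Bak1-202 alone. By library, the ratio with Bak1-202 alone was -1.71 in replicate 1 and -4.01 in replicate 2. With the transcript of unknown type counted as coding, it was 0.25 in replicate 1 and -0.87 in replicate 2. In replicate 1, which effector gene had more coding RNA thus rested on that transcript, while in replicate 2 Bax had more either way. Exons of Bak1 also overlap those of Ggnbp1 on the opposite strand over 614 of 2407 bases. Ggnbp1 had 824 counts in replicate 1 and 19.3 in replicate 2. The sources used here do not say whether counting used the strand, so reads of the overlap cannot be told apart.

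Bcl2l11 was spread over transcripts of the known BIM forms. Bcl2l11-205, with the 196 codons of the extra-long form, had 698 counts and 1.59 TPM in replicate 1 and 733 counts and 1.13 TPM in replicate 2. The 140-codon form on Bcl2l11-203 and a 110-codon form on Bcl2l11-201 were both listed at 0 in replicate 1, and had 0.67 and 0.81 TPM in replicate 2. Non-coding Bcl2l11-208, of 1611 bases and without the BH3 stretch, held 43.7% and 28.3%, at 1.39 and 1.31 TPM. Bcl2l11-202, a coding transcript of 91 codons that also lacks the stretch, held 6.19% and 12.3%. Protein-coding transcripts that hold the BH3 stretch in their sequence came to 1.59 TPM in replicate 1 and 2.75 in replicate 2.

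Bid had its full coding transcript, Bid-201 of 195 codons, at 4.28 TPM in replicate 1 and 5.48 in replicate 2, which was 67.7% and 98.5% of its TPM. The rest of replicate 1 was on Bid-204, a target of nonsense-mediated decay (23.7% of the TPM, against 1.48% in replicate 2), and on Bid-205, an intron-retaining transcript at 8.58%, against 0 in replicate 2. By these classes coding Bid was therefore higher in replicate 2, while whole-gene TPM was higher in replicate 1. Bid-204 also has an open frame of 195 codons and holds the BH3 stretch, as Bid-201 does. Only its class leaves Bid-204 out, so the direction for coding Bid rests on that class. Exons of Bid overlap those of Bcl2l13 on the opposite strand over 628 of 3550 bases, with 4630 and 7759 counts of Bcl2l13. Exons of Bad overlap Gpr137 on the opposite strand over 524 of 2558 bases, with 182 and 317 counts of Gpr137. Exons of Bcl2 overlap the antisense gene D630008O14Rik over 558 of 9157 bases, with 0 and 5 counts of it. Exons of Bax overlap Gm45808 on the same strand over 192 of 1576 bases, and the level of that gene was not analysed here. The share of such reads in the levels of these genes was not tested.

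**Figure D2:**
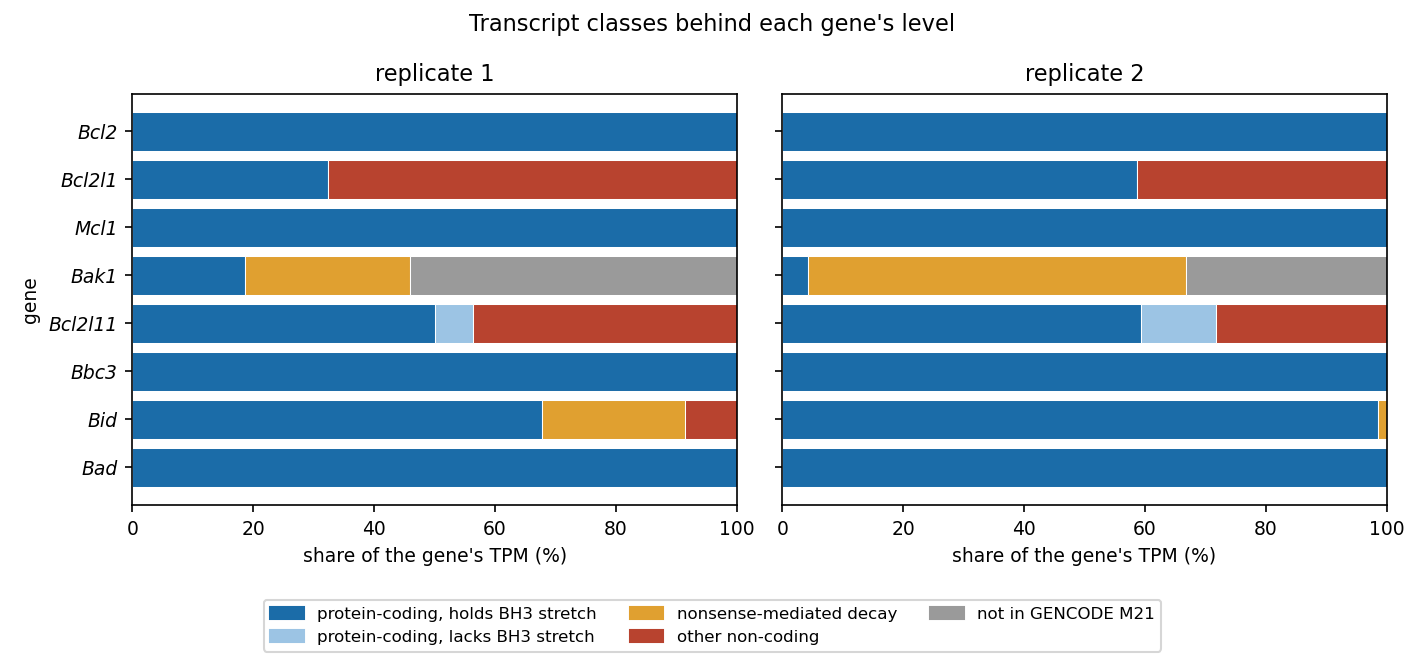
Share of each gene's TPM, in percent, by transcript class in replicate 1 and replicate 2, for the 8 genes with 2 or more transcripts in the tables; classes are those of GENCODE M21. Coding transcripts with the BH3 stretch make up 18.7% of Bak1 in replicate 1 and 4.22% in replicate 2, and all of Bcl2, Mcl1, Bbc3 and Bad in both.

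The transcript with the highest TPM was the same in both libraries for 7 of the 10 genes. These include Bax and Pmaip1, which have 1 transcript each, so theirs could not differ. Among the 6 genes with several transcripts and 1 TPM or more in each library, 2 had another leading transcript in the other library, Bak1 and Bcl2l11. The same held for 27.4% of 6363 such protein-coding genes. Bcl2l1, below that level in replicate 2, also changed its leading transcript. By expected counts the leading transcript was the same for all 10 genes, with Bax and Pmaip1 again fixed in advance. The share over all genes is not given by expected counts.

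The sums by role also shifted when coding transcripts alone were taken, which leaves out the Bak1 transcript of unknown type. The survival sum was 39.4 TPM in replicate 1 and 25.7 in replicate 2, the effector sum 12.2 and 8.40, and the BH3-only sum 13.3 and 14.4. Survival over effector was 1.65 ± 0.052 on the log2 scale (SD, n = 2), compared with 0.58 for whole genes, and 1.00 ± 0.091 with the Bak1 transcript of unknown type counted as coding. Survival over BH3-only was 1.203 ± 0.515, which lay within the spread of its whole-gene value. Effector over BH3-only was -0.45 ± 0.46, and 0.63 in replicate 1 and -0.23 in replicate 2 with that transcript, against 0.44 ± 0.18 for whole genes, so the order of these sums was not settled on coding transcripts.

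Between the libraries, Bcl2l1 was higher in replicate 1 and Bcl2l11 was higher in replicate 2 under every scaling tried. Ratios are replicate 1 over replicate 2, as log2 of TPM with 1 added, and there is 1 library on each side, so no test was possible. Over the 9033 genes that averaged 1 TPM or more, the median ratio was 0.27, and it was -0.01 with TMM-scaled counts, a scaling that balances the bulk of genes. TPM ratios are therefore read relative to 0.27.

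Bcl2l1 had a ratio of 1.21, or 0.94 above that median, and lay between 1.19 and 1.45 under the 5 scalings tried. The added 1 shrinks ratios at this level, and with 0.1 added the ratio was 1.86. It was the 1 of the 8 family genes averaging 1 TPM or more that passed 2-fold. Past 2-fold in either direction were 8.13% of the 9033 genes (6.47% higher in replicate 1 and 1.66% higher in replicate 2), and 8.33% with TMM-scaled counts, so the count of 1 in 8 is near the background. Its expected counts differed by 0.98 on the log2 scale and its effective length, which divides the counts to give TPM, by -0.44 (1168 bases in replicate 1 and 1586 in replicate 2). Coding Bcl2l1-201 had 157 and 138 counts, so much of the count difference lay in Bcl2l1-209. Over the marker lists, sums of megakaryocyte markers were 45.5 and 18.25 TPM and those of stem cell markers 77.3 and 20.1, also higher in replicate 1. Of these markers 3 of 5 and 4 of 5 were higher there by TPM, against 73.1% of the 9033 genes. Gp9, Vwf and Mecom were higher in replicate 2, as were all 8 erythroid markers on rescaled TPM. Their part in the difference of Bcl2l1 was not tested.

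Bcl2l11 had a ratio of -0.43, or -0.71 relative to the median, and lay between -0.81 and -0.42 under all 5 scalings, so it was higher in replicate 2 in each. Granulocyte and monocyte markers summed to 74.9 and 138 TPM, with 5 of 7 higher in replicate 2 and Mpo and Elane higher in replicate 1. By TPM, 73.1% of the 9033 genes were higher in replicate 1. Lymphoid markers summed to 7.22 and 16.2 TPM, but to 7.22 and 7.15 without the cytotoxic gene Gzma, which had 0 counts in replicate 1 and 792 in replicate 2. The erythroid markers were higher in replicate 2 on rescaled TPM, as above. The part of these cells in the level of Bcl2l11 was not tested. Bbc3, another BH3-only gene, had -0.08 by TPM and between -0.51 and -0.08 over the scalings. Its counts were 121 in replicate 1 and 200 in replicate 2.

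Mcl1 had a ratio of 0.59 by TPM, and 0.27 with TMM-scaled counts, and Bcl2 had 0.44 and 0.37. Both were higher in replicate 1 under all 5 scalings. Pmaip1, with 156 and 109 counts, ran from 0.35 to 0.73, also higher in replicate 1. Bax, Bak1 and Bid had 0.22, 0.37 and 0.16 by TPM but -0.09, -0.28 and -0.22 with TMM-scaled counts, so their direction depended on the scaling. Bad was 0.34 by TPM and 0.03 with TMM-scaled counts. Higher in replicate 1 were 8 of the 10 genes by TPM, against 73.1% of the 9033 genes, and 5 of the 10 with TMM-scaled counts.

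The authors' TPM intervals did not overlap between the libraries for all 8 family genes that averaged 1 TPM or more, and the same held for 76.9% of the 9033 genes. Effective length differed by over 1.2-fold for 2 of these 8, Bcl2l1 and Bak1, and for 22.3% of the 9033. Expected counts were whole numbers within 0.005 in both libraries for all 10 family genes, and for 89.1% of the 9033.

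**Figure D3:**
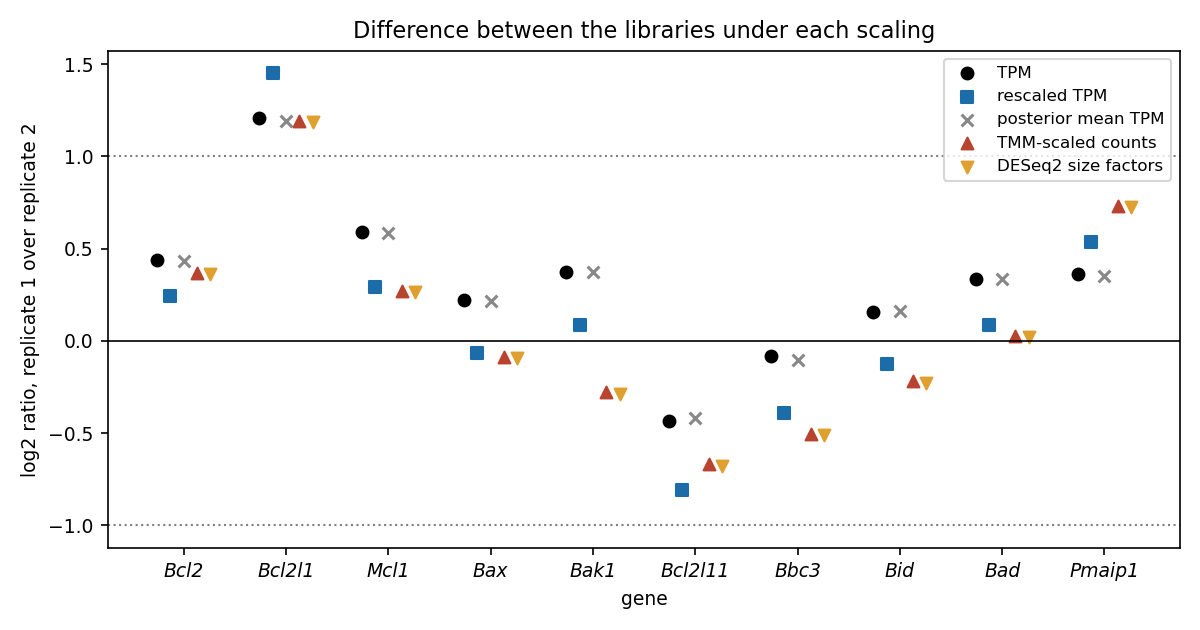
Log2 ratio of replicate 1 over replicate 2 for each gene under 5 scalings, with 1 added to TPM-type values; the dotted lines mark 2-fold. Bcl2l1 is past 2-fold under each scaling, from 1.19 to 1.45, Bcl2l11 is below 0 under each, and Bax, Bak1 and Bid cross 0 between scalings.

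Other members of the family were mostly at or near 0. Lists of these and of pathway genes were chosen with earlier results of these data known. Of the 6 other survival genes none stood at 1 TPM in both libraries, against 39.4% of the 21461 nuclear protein-coding genes that did. Bcl2l2, the gene of BCL-W, was the nearest, with 605 and 313 counts and 1.98 TPM in replicate 1 against 0.71 TPM in replicate 2, a mean of 1.345 ± 0.898 (SD, n = 2). Bcl2l10, Bcl2a1a, Bcl2a1b and Bcl2a1c had 0 counts in both libraries. Bcl2a1d had 0 counts in replicate 1, where 3 counts would be a TPM of 0.0513, and 87 counts or 1.02 TPM in replicate 2. The Bcl2a1 copies are nearly identical, so how counts were split among them is uncertain.

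The third effector gene, Bok, had 0 counts in both libraries. Among the other BH3-only genes, Hrk had 0 counts, Bik had 2 and 0, and Bmf had 0.35 TPM in replicate 1 and 0.44 TPM in replicate 2. The more distant relatives were partly higher. Bcl2l13, whose protein sits in the outer mitochondrial membrane, had 7.56 and 8.60 TPM, a mean of 8.08 ± 0.735 (SD, n = 2), next to Bax in level. Bcl2l12 had 4.16 and 5.50 TPM, Bcl2l15 0.91 and 1.80, and Bcl2l14 0.23 and 0.

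Genes of the apoptosome, the caspases and their control were present throughout. All 7 listed genes of the apoptosome and caspases stood at 1 TPM or more in each library, with a median of 6.16 TPM. So did all 7 caspase inhibitors and their antagonists, with a median of 14.9. The same held for 39.4% of the 21461 nuclear protein-coding genes, and the 9033 that averaged 1 TPM or more had a median of 7.38. Cycs, the gene of cytochrome c, led the apoptosome and caspase list with 36.1 TPM in replicate 1 and 28.0 TPM in replicate 2. Casp8, the caspase gene whose product cuts BID, had 18.5 and 12.4 TPM, and Casp2 had 13.7 and 16.4 TPM. Among inhibitors, Birc6 had 44.9 and 36.2 TPM and Birc5, the gene of survivin, 38.6 and 39.1. Htra2, whose protein blocks such inhibitors, had 26.1 and 26.4. The apoptosome itself was lower than Cycs, with its scaffold gene Apaf1 at a mean of 5.51 ± 1.41 and its caspase gene Casp9 at 3.65 ± 1.68 (SD, n = 2).

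Mitochondrial partners and downstream factors had the highest median of these lists, 51.4 TPM, with 5 of 6 genes at 1 TPM or more in each library. Over all 21461 nuclear protein-coding genes, 39.4% reached that level. The channel gene Vdac2, whose protein binds BAK, had 112 TPM in replicate 1 and 87.5 in replicate 2. Vdac3 had 89.1 and 75.6 and Vdac1 62.2 and 65.2. The nuclease gene Endog was the exception, at 0.34 and 1.36. Genes of MCL1 turnover all stood at 1 TPM or more, with a median of 20.6. They were led by the ligase gene Huwe1 at 43.2 and 29.4, the deubiquitinase gene Usp9x at 40.3 and 26.1, and the mitochondrial ligase gene March5 at 24.4 and 16.7. By TPM all 5 of these genes were higher in replicate 1, a direction shared by 73.1% of the 9033 genes, and 4 of 5 were once TPM was rescaled over nuclear protein-coding genes.

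All 10 listed upstream regulators stood at 1 TPM or more in each library, against 39.4% of the 21461 nuclear protein-coding genes. The median of the 10 regulators was 14.6 TPM. Gata1, the erythroid factor, had 35.8 and 31.3 TPM, and Ddit3, the gene of the stress factor CHOP, 37.8 and 18.6. Jak2, the kinase of the erythropoietin receptor, had 22.9 and 17.4 TPM, and the erythropoietin receptor gene Epor had a mean of 8.89 ± 0.714 (SD, n = 2). Trp53, whose protein activates Bbc3, Pmaip1 and Bax, was among the regulators higher in replicate 2, at 15.8 and 23.4 TPM.

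**Figure D4:**
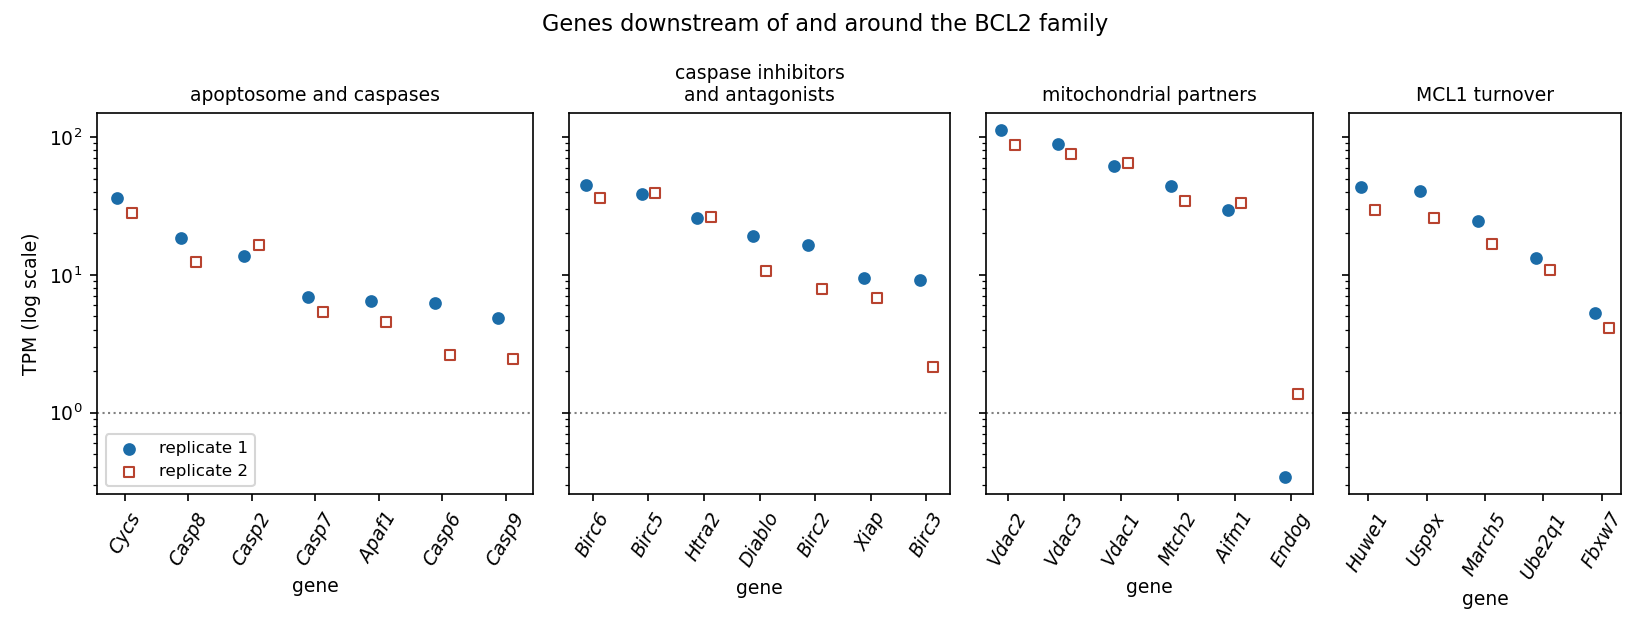
TPM on a log axis of the genes of 4 lists around the family, with replicate 1 as filled circles and replicate 2 as open squares; the dotted line marks a TPM of 1. Vdac2 (112 and 87.5), Vdac3 (89.1 and 75.6) and Vdac1 (62.2 and 65.2) stand highest, and Endog is the gene with a point below the line.

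For the leading gene of each role, the 3 nearest nuclear protein-coding genes were taken by Euclidean distance of log2 TPM, with 1 added, over the 2 libraries. Mcl1 was nearest to N4bp2l2 at 34.8 and 22.2 TPM (distance 0.030), then to Gsto1 and Csnk1d. Bak1 was nearest to Sugt1 at 15.5 and 11.6 TPM (distance 0.018), then to Phf6 and Smad2. Bid was nearest to Zfp866 at 6.25 and 5.54 TPM (distance 0.015), then to Cdc40 and Trappc10. With 2 libraries of 1 cell type, such likeness is one of level only.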

How the data were processed

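Per the file headers, the authors deposited for each library an expected count (an estimated, unnormalized number per gene or transcript), a TPM and FPKM (scaled by length and depth), a posterior mean TPM, bounds of a TPM interval whose level is not stated, an effective length and, for transcripts, the percent of the gene's TPM. Text files deposited with the tables name genome build mm10 and GENCODE M4. Which program quantified the reads: not given in the sources used here.

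Gene IDs were matched to GENCODE M21, with 42462 of 43346 found and 884 not. Means and SDs of deposited TPM were taken over the 2 libraries. Rescaled TPM divides by the sum over nuclear protein-coding genes without globins. Expected counts were rounded to whole numbers for TMM factors (edgeR 4.0.16) and size factors (DESeq2 1.42.0, R 4.3.3). Other steps used Python 3.11.15, numpy 2.4.6, pandas 2.3.3 and matplotlib 3.10.9. Depth limits low genes, and the tables carry no molecular identifiers, so a floor of 3 counts covers counting error only. The members and lists were chosen with earlier results of these data known. The rule for named genes took all members and other family genes, the 3 highest genes of each further list, transcripts of at least 10% of their gene, the 3 nearest genes of each role's leader and the markers. Apaf1, Casp9, Endog, Trp53, Bid-205 and the overlapping genes Ggnbp1, Gpr137, D630008O14Rik and Gm45808 were named outside it, after their values were seen. Alternatives were other units, thresholds, scalings, pseudocounts and each library alone. A pair of genes on the original lists is not reported here and was left out of them.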

Additional observations from a re-analysis of the deposited data

How the results depend on the processing

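No paired analysis was possible because there is 1 group. The median level of the 10 genes, a TPM of 4.45, was 11.3 as FPKM and 19.5 as rescaled TPM, which are other units, and 4.47 to 4.78 with either library alone. Family genes at 1 TPM or more in both libraries numbered 7 (7 to 8 with either library alone), but 4 at a TPM of 5. They numbered 10 at a TPM of 0.1, at 10 expected counts or at 1 on rescaled TPM. That last cut is looser than 1 TPM, since Bcl2 at 3.87 TPM in replicate 1 was 15.2 rescaled. The share of all nuclear protein-coding genes, 39.4%, is for 1 TPM in both libraries and is not given for the other cuts. Counts not divided by length gave 1.93 for survival over BH3-only and 2.45 for survival over effector on the log2 scale (either library alone gave 0.72 to 1.31 and 0.42 to 0.75). Protein-coding transcripts only, an alternative chosen after seeing the data, gave 1.65 for survival over effector and turned Bak1 over Bax round to -2.86. Both values leave out the Bak1 transcript that is not in M21. Counting it as coding, also chosen after seeing the data, gave 1.00 and -0.31. Bcl2l11 over Bcl2, 0.27 on average, turned to -0.69 by counts not divided by length, -0.29 without replicate 2 (0.83 without replicate 1) and -0.38 on coding transcripts with or without that one. The median ratio of the libraries over the 10 genes, 0.35, was -0.031 with TMM and -0.038 with DESeq2 scaling. At a mean TPM of 5, 0 of 4 family genes and 322 of 5634 protein-coding genes passed 2-fold, against 1 and 734 at a mean TPM of 1. The cause of these shifts was not tested. Depth limits Pmaip1, Bbc3 and Bcl2l1 most, with 109 to 337 counts a library.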
